A study of Mus musculus with 9 samples.

Results

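Histone genes were selected by symbol from the table of 55291 genes that was measured in the main olfactory epithelium of 9 mice, and 72 genes carried a symbol of the clustered histone genes (Hist1 to Hist4, H2ac, H2bc, H3c, H4c) or of the H1 linker histones (H1f). They comprised 11 H1, 20 H2A, 17 H2B, 12 H3 and 12 H4 genes, 57 on chromosome 13, 10 on chromosome 3, 2 on chromosome 6, 2 on chromosome 15 and 1 on chromosome 19. Of these genes, 4 are annotated as pseudogenes. The mice were aged 8 to 12 weeks, and all carried the label C57BL/6. There were 3 wild-type mice, 3 Ms4a cluster knockout mice, made with CRISPR/Cas9, and 3 Ms4a6c knockout mice, made by homologous recombination. The wild-type mice are described as littermates, without naming the knockout line they were littermates of. RNA with a poly-A tail was sequenced, and the authors deposited expected counts, the estimated number of reads of each gene. CPM below is a gene's count in a library of 1000000 counts, after scaling by TMM, edgeR's scaling method.

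Histones are the proteins around which DNA is wound: H2A, H2B, H3 and H4 form the core of the nucleosome, and H1 binds the linker DNA between cores. Most clustered histone genes are transcribed while DNA is being copied, and their RNAs end just after a short stem-loop instead of in a poly-A tail, so that a poly-A selection recovers few of them. Some histone RNAs, such as that of H1f0, are polyadenylated and are made in cells that no longer divide. H2bc21, whose older symbol is Hist2h2be, encodes H2BE, an H2B variant known from mature olfactory sensory neurons, where its level is tied to the activity and lifespan of the neuron.

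The core of the stem-loop, spelled GG, any 2 bases, CTTTT, any base, AG, any 2 bases and CC, was searched on the sense strand of each gene's longest transcript in the GENCODE M21 annotation of GRCm38. These letters were present in 40 of the 72 histone genes (55.6%) and in a transcript of 89 of all 55450 annotated genes (0.16%). The 5 most abundant histone genes with these letters are shown with the matched letters in capitals and the flanking bases in lower case, because the distance from these letters to the annotated end differs widely between them.
H2ac19, chr3:96239777-96239806, minus strand: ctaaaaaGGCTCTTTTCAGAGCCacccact
H2ac18, chr3:96246025-96246054, plus strand: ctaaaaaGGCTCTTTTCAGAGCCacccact
Hist1h2ap, chr13:21833026-21833051, minus strand: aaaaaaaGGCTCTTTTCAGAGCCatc
H3c15, chr3:96238478-96238507, minus strand: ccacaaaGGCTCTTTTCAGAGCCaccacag
H1f2, chr13:23739505-23739534, plus strand: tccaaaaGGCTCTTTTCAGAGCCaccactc
The annotated transcript ran on for 3 bases past the stem-loop letters in Hist1h2ap, 35 in both H2ac18 and H2ac19, 377 in H3c15 and 840 in H1f2. H2bc21, H2bc4, H1f0 and H1f10 held no match in their longest transcript, which says only that these letters are not in that transcript.

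Hist1h2al, named for an H2A gene, is annotated as a processed pseudogene of 339 bases at chr13:51202727-51203065 on the minus strand, outside the stretch of chromosome 13 that holds the other 56 histone genes of that chromosome (21715763 to 23934851). Along its whole length it differed by 2 bases, C120T and T216G with the Hist1h2al base first and positions counted from the 5′ end of its transcript, from H2ac18, from H2ac19 and from Gm20634, which are all on chromosome 3 (99.4% identity). From Hist1h2ap of chromosome 13 it differed by 25 bases. The 41 bases around each difference are shown with the differing base in capitals, because within the shared 339 bases these are the bases that separate Hist1h2al from the others.
Hist1h2al, chr13:51202926-51202966, minus strand: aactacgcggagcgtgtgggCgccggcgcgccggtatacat
H2ac19, chr3:96240096-96240136, minus strand: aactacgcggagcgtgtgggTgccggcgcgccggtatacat
Hist1h2al, chr13:51202830-51202870, minus strand: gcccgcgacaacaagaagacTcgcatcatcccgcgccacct
H2ac19, chr3:96240000-96240040, minus strand: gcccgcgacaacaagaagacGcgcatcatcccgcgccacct
H2ac18 has the same letters as H2ac19 in both windows, and its transcript and that of Gm20634 were identical to H2ac19 over all 528 bases of H2ac19, so these bases do not separate the 3 from each other.

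Near-identical copies were common in the whole set. Of the 72 genes, 46 had a transcript at least 98% identical over 300 or more bases to that of another of them, and these fell into 7 groups linked by such matches, with up to 13 genes each. The linker histone gene H1f4 is among the 46 only through 450 bases shared with H2bc6, whose annotated span overlaps it on the same strand. It thereby joins a group of H2B genes. Expected counts divide a read among the genes it matches. Of the histone genes' values above 0, 77.7% were not whole numbers (328 of 422, tolerance 0.005), against 24.2% over all genes. Such values were not limited to the 46 genes: H1f0, H4c8 and H4c9, which are in none of the 7 groups, had them in all 9 mice. H2ac18, H2ac19, H3c15 and Hist1h2ap had fractional counts in all 9 mice, so the division between copies is an estimate. H2bc21 had whole counts in all 9 mice, and its closest other transcript was 89.2% identical over 360 bases. Separately, 28 histone genes overlapped a gene outside the set, 25 of them on the opposite strand. Many of the opposite-strand partners are annotated miRNAs at or near 0 CPM. Antisense partners with enough counts to be tested lay only opposite H2bc18, H3c13, H2ac18, H2ac19, H1f10 and H1f0. Whether the counting used strand is not given in the sources used here, and without it reads from a gene and its antisense partner cannot be told apart.

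Library totals ranged from 13954591 to 21987174 expected counts. In wild-type mouse 1 and Ms4a cluster knockout mouse 2 a single nasal gland transcript, Bpifb9b, took 10.4% and 10.2% of the counts, and both libraries had a low TMM factor (0.702 and 0.704, against 1.07 to 1.13 in the others). Leaving out both mice changed none of the calls on histone genes below. With plain library size in place of TMM, an alternative added after the data were examined, the median log2 fold change of all genes was 0.18 in Ms4a6c knockout against wild type and -0.17 between the knockouts, and results that change are given with that value beside them. The targeted gene Ms4a6c had 54.0, 90.3 and 81.5 counts in wild-type mice, 0 in each Ms4a cluster knockout mouse and 0, 2.35 and 2 in the Ms4a6c knockout mice. Omp, the marker of mature olfactory sensory neurons, was at 4018 to 5215 CPM in every mouse. A count of 3, taken as the smallest that can be told from 0, corresponds to between 0.123 and 0.299 CPM, and this limit covers counting error only.

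A few genes made up most of the histone reads in poly-A RNA. Of the 72 genes, 6 had 0 counts in all 9 mice, 21 never exceeded 3 counts in any mouse, 24 exceeded 3 counts in every mouse, and 9 had a mean of 10 CPM or more. For a gene with identical copies, such as H3c14, a count of 0 depends on how reads were divided and does not show absence. The 52 genes with at least 10 counts in total could be tested. All 72 together made up 0.0768% to 0.105% of the scaled library, and H2bc21 alone held 45.0% to 60.6% of that sum.

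**Figure D1:**
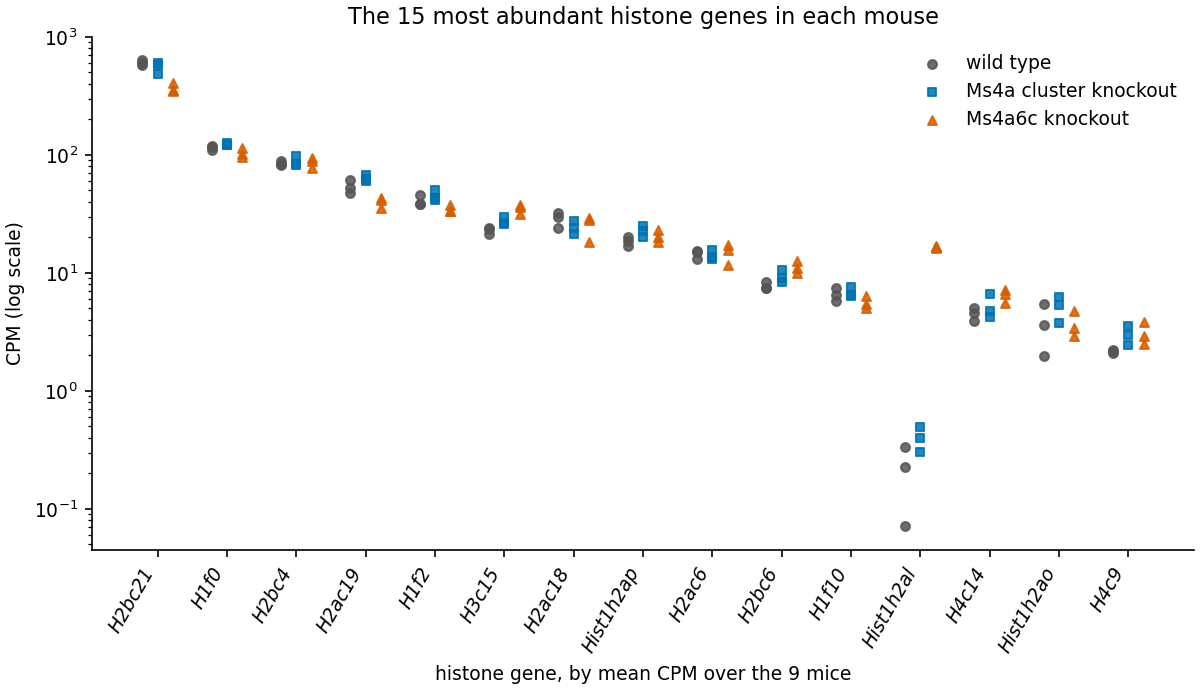
CPM on a log scale of the 15 histone genes with the highest mean over the 9 mice, 1 point per mouse, by genotype. H2bc21 lies above all others in each mouse, and Hist1h2al lies at 16.4 to 16.9 CPM in the Ms4a6c knockout mice and at or under 0.498 CPM in the other 6.

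Divided by the length of the longest transcript, H2bc21 was at 194 CPM per kb (131.8 to 243 over the 9 mice) and led the set. H2ac19 followed at 99.3 CPM per kb (67.1 to 129), H2bc4 at 74.9 (66.6 to 84.8) and H1f0 at 55.3 (46.6 to 60.8). The lowest H2bc21 value lay above the highest H2ac19 value, whereas the ranges of H2ac19 and H2bc4 overlapped over the 9 mice. H2ac18 (44.4 CPM per kb, 31.0 to 55.4) and Hist1h2ap (42.7, 35.1 to 51.7) came next and overlapped each other. H3c15 at 28.0 CPM per kb (21.03 to 37.1) and H1f2 at 25.7 (21.5 to 32.3) overlapped as well.

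The level per length differed between genes grouped by the end of their annotated transcript. The 19 genes whose transcript runs on for 100 bases or more past the stem-loop letters had a median of 1.28 CPM per kb, and 13 of them had a mean of 1 CPM or more. The 21 genes whose transcript ends within 100 bases of the letters had a median of 0.26 CPM per kb, with 5 at a mean of 1 CPM or more. The 32 genes without the letters had a median of 0.152 CPM per kb, with 6 at a mean of 1 CPM or more, although 3 of the 4 highest genes of the set were among them. The groups also differed in length, with a median longest transcript of 1249, 482 and 427.5 bases in the order given. Counts of genes at a mean of 1 CPM or more are not divided by length. Transcript end and length cannot be told apart here. These are descriptions of annotated transcripts and were not tested, since copies share reads and annotated ends differ in how completely they are known.

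**Figure D2:**
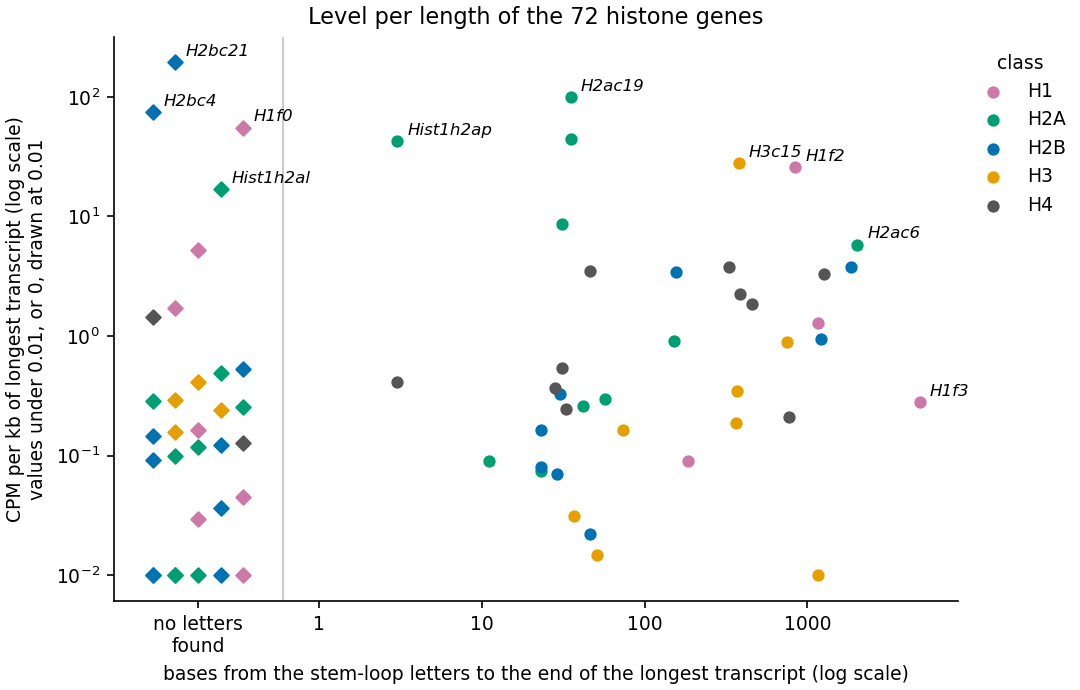
Mean CPM per kb of the longest transcript over the 9 mice (log scale, values under 0.01 drawn at 0.01) of each of the 72 histone genes, against the number of bases between the stem-loop letters and the annotated transcript end (log scale). Diamonds at the left are the 32 genes without the letters, in which H2bc21 is highest at 194 CPM per kb, and colours give the histone class.

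In the comparison of Ms4a cluster knockout with wild-type mice, which asks what the loss of the whole receptor cluster does to the epithelium, 0 of the 52 tested histone genes passed an adjusted p of 0.05 (edgeR's quasi-likelihood test, Benjamini-Hochberg adjustment over all genes tested), beside 0.0258% of all 23225 genes. At an unadjusted p under 0.05 there were 7, all higher in the knockout, beside 4.93% of all genes. With DESeq2 the adjusted count was also 0, beside 0.0775%. The median log2 fold change of the 52 was 0.15, beside 0.01 over all genes. Some of the 52 have few counts and passed the filter through the group that held them, so the direction of the 7 and this median are descriptions. In bulk tissue, fewer cells that express a gene and less of its RNA in each cell cannot be told apart.

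The smallest unadjusted p-values in that comparison belonged to H3c15, Hist1h2br and Hist1h2ap. H3c15, an H3 gene of chromosome 3, was at 23.8, 23.7 and 21.4 CPM in the wild type and at 25.9, 29.7 and 26.7 in Ms4a cluster knockout mice. All 3 knockout values were above the wild-type values, with a log2 fold change of 0.25 (SE 0.09, edgeR adjusted p = 0.968). Hist1h2br, an H2B gene with near-identical copies, had 0 counts in all wild-type mice and 0, 6.09 and 17.6 in the knockout, so that 1 knockout mouse lay with the wild type. Its copy Hist1h2bq, 99.75% identical over 2002 bases, had 7.82, 6.09 and 5.07 counts in wild type and 5.91, 0 and 0 in the knockout. The division of reads between these copies is an estimate, so the counts do not show a gain of Hist1h2br. Hist1h2ap, an H2A gene of chromosome 13, was at 16.9, 20.2 and 18.5 CPM in wild type and 24.9, 20.1 and 22.9 in the knockout, which overlapped (log2 fold change 0.29, SE 0.12, edgeR adjusted p = 0.968).

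Ms4a6c knockout mice, which lack a single receptor gene of the cluster, were compared with wild type in the same way, and 3 of the 52 tested histone genes passed, beside 0.435% of all genes tested. Hist1h2al and H3c15 were higher, beside 0.22% of all genes, and H2bc21 was lower, beside 0.215%. DESeq2 called 4, beside 1.49%. Hist1h2al and H3c15 were named when the gene set was proposed, with earlier results of these data known. The unadjusted p was under 0.05 for 11 of them (8 positive and 3 negative changes), beside 10.5% of all genes. The median log2 fold change of the 52 was 0.19, beside 0.00 over all genes. Some of the 52, such as H2bc18 and H2bc12, reached the filter only through the Ms4a6c knockout mice. The direction of such genes was set by the filter, so the split of the 11 and this median are descriptions.

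**Figure D3:**
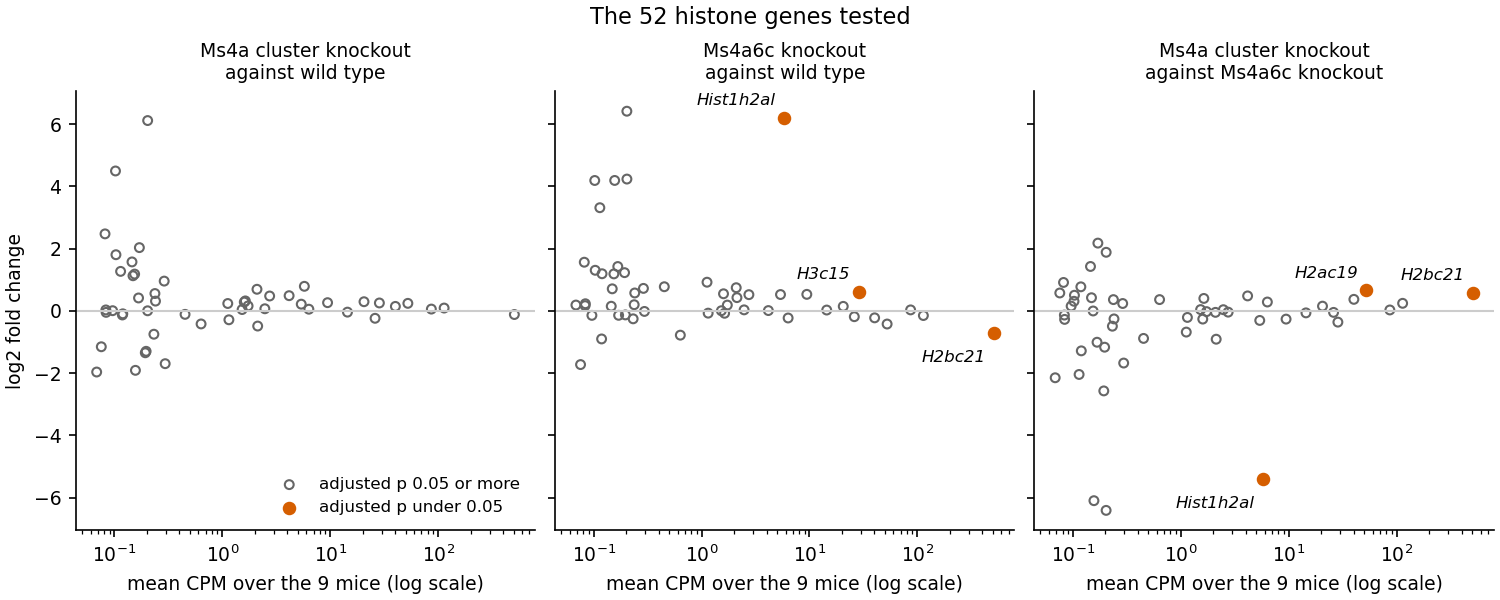
Log2 fold change of the 52 tested histone genes against their mean CPM over the 9 mice (log scale) in the 3 comparisons; filled points have an edgeR adjusted p under 0.05. There are 0 filled points between Ms4a cluster knockout and wild type and 3 in each of the other comparisons, and the wide spread at the left of each panel is among genes with few counts.

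H2bc21, the gene of the olfactory H2B variant, lies at chr3:96221119-96223738 on the plus strand. It was at 574, 637 and 598 CPM in the wild type, at 602, 487 and 575 in Ms4a cluster knockout mice and at 408, 355 and 345 in Ms4a6c knockout mice. All 3 Ms4a6c knockout values were below all 6 others, while wild type and Ms4a cluster knockout overlapped. The group means were 603 ± 31.5 CPM (SD, n = 3) in wild type and 369 ± 33.5 (SD, n = 3) in the Ms4a6c knockout, a log2 fold change of -0.71 (SE 0.10, edgeR adjusted p = 0.0124). The 6 markers of mature olfactory sensory neurons summed to 11974 to 12571 CPM in the Ms4a6c knockout and 10756 to 12514 in wild type, with 0 of 6 at an unadjusted p under 0.05, and their part in the result was not tested. Leaving out wild-type mouse 2 gave an adjusted p of 0.0754, wild-type mouse 3 0.0609, Ms4a6c knockout mouse 2 0.0865 and Ms4a6c knockout mouse 3 0.0907 (edgeR), with log2 fold changes from -0.78 to -0.66 over all 6 such fits. With plain library size the values were 403, 699.5 and 666 CPM in wild type, 678, 343 and 631 in the Ms4a cluster knockout and 452, 379.95 and 388 in the Ms4a6c knockout. The genotypes then overlapped through the gland-rich mice, and the call was lost (log2 fold change -0.53, SE 0.32, edgeR adjusted p = 0.952).

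H2bc21 lies head to head with H2ac20, an H2A gene on the minus strand whose transcript starts at 96220880. The RefSeq promoter window of H2ac20 (GRCm38.p6, chr3:96220831-96221130, minus strand) is shown because it spans the whole interval between the pair. Capitals mark the octamer ATGCAAAT (reverse ATTTGCAT), the letters TATAAA (reverse TTTATA) and the letters CCAAT (reverse ATTGG), each searched on both strands, and the matches do not overlap.
H2ac20: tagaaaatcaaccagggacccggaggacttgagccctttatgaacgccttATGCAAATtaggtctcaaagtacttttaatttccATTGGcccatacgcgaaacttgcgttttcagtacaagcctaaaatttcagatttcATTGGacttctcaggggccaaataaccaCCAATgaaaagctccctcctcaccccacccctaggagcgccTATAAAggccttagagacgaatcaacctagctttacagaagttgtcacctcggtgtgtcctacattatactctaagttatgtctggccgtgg
RefSeq windows of 300 bases were found for 55 of the 72 genes. The octamer was in 12 of the 55 (21.8%), 6 of 14 H2A and 6 of 12 H2B genes, beside 1.74% of all 32851 windows. The letters TATAAA were in 54.5% of the 55 windows, beside 13.6% of all, and CCAAT in 83.6%, beside 37.4%. Such matches describe the letters and were not tested as sites. H2ac20 had at most 6.05 counts in any mouse and a level of 0.296 CPM per kb, against 194 for H2bc21.

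The summed level depended on H2bc21 and on the scaling. The sum over all 72 genes was 1017, 1051 and 1008 CPM in the wild type, 1042, 962 and 1034 in Ms4a cluster knockout mice and 849, 784 and 768 in Ms4a6c knockout mice. With TMM the Ms4a6c knockout mice were the 3 lowest and the other genotypes overlapped. Under plain library size the gland-rich wild-type mouse 1 (714 CPM) and Ms4a cluster knockout mouse 2 (677 CPM) lay below all Ms4a6c knockout mice (839 to 942 CPM). Without H2bc21 the sums were 443, 414 and 410 CPM in wild type, 440, 475 and 459 in the Ms4a cluster knockout and 441, 429 and 423 in the Ms4a6c knockout, which overlapped in all 3 pairs of genotypes. No test was made on these sums, and the difference of mean sums between Ms4a6c knockout and wild type, -225 CPM, was -116 with plain library size and 8.54 without H2bc21.

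**Figure D4:**
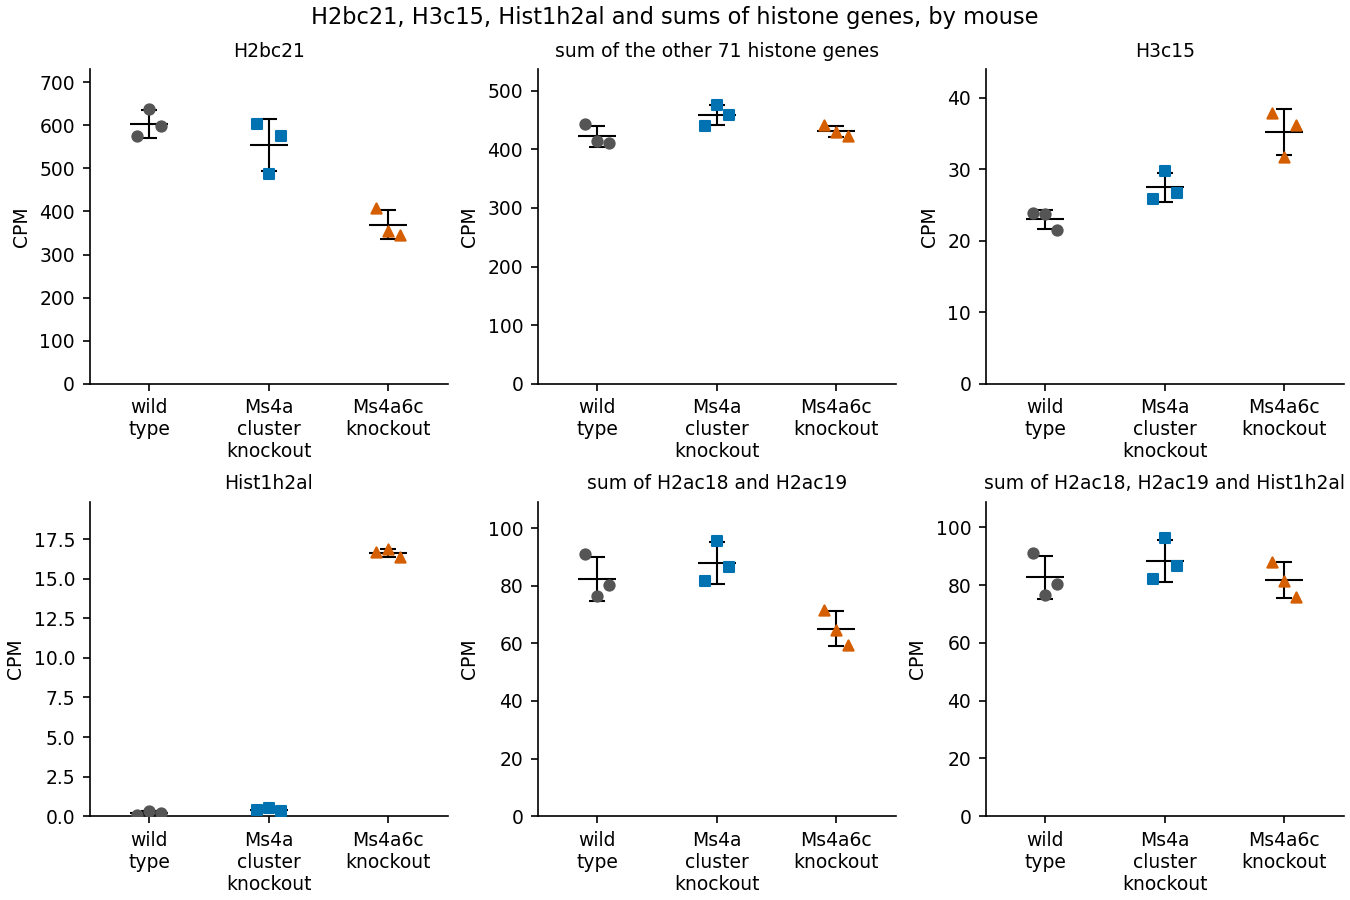
CPM in each mouse (points), with the mean and SD of 3 mice (bars), of H2bc21, H3c15 and Hist1h2al, of the sum of the 71 histone genes other than H2bc21, and of the sum of H2ac18 and H2ac19 without and with Hist1h2al. In this TMM-scaled CPM, though not for H2bc21 with plain library size, H2bc21 is lowest and H3c15 and Hist1h2al are highest in the Ms4a6c knockout mice, and adding Hist1h2al to H2ac18 and H2ac19 brings the Ms4a6c knockout mean from 65.1 to 81.7 CPM, beside 82.7 in wild type.

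Hist1h2al had 1, 6.05 and 4.02 counts in the wild type and 8.31, 5.05 and 6.09 in Ms4a cluster knockouts, against 408, 272 and 257 in Ms4a6c knockout mice. In CPM these were 0.0711, 0.333 and 0.228, then 0.401, 0.498 and 0.301, then 16.7, 16.9 and 16.4. The Ms4a6c knockout mice stood far above the other 6 and close to each other. The log2 fold change from wild type was 6.20 (SE 0.29, edgeR adjusted p = 2.89e-06). It stayed under an adjusted p of 0.05 in every fit in which it was counted alone, including without the 2 gland-rich mice.

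Its near-identical relatives on chromosome 3 did not pass in this comparison. H2ac19, an H2A gene, was at 61.5, 52.3 and 47.6 CPM in the wild type, 60.3, 68.1 and 62.2 in Ms4a cluster knockout mice and 43.4, 35.4 and 41.2 in Ms4a6c knockout mice. The Ms4a6c knockout values were below all others, but the log2 fold change from wild type of -0.43 (SE 0.10) did not pass (edgeR adjusted p = 0.164). With DESeq2 it passed (adjusted p = 0.0249). H2ac18, the same transcript on the plus strand of chromosome 3, overlapped between wild type (29.5, 24.02 and 32.5 CPM) and Ms4a6c knockout (28.0, 29.0 and 18.2 CPM), with a log2 fold change of -0.19 (SE 0.18, edgeR adjusted p = 0.757).

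The sum of H2ac18, H2ac19 and Hist1h2al was 91.1, 76.6 and 80.3 CPM in the wild type, 82.0, 96.2 and 86.7 in Ms4a cluster knockout mice and 88.1, 81.3 and 75.7 in Ms4a6c knockout mice. All 3 genotypes overlapped. When the reads of this near-identical group, which also takes in H2ac20, were summed before the fit, the log2 fold change between Ms4a6c knockout and wild type was -0.01 (SE 0.09, edgeR adjusted p = 0.975). The total of these reads was thus not called. This alternative was chosen after the data were examined.

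H3c15 lies at chr3:96238108-96239127 on the minus strand, beside H2ac19, and encodes a replication-dependent H3. It was at 23.8, 23.7 and 21.4 CPM in the wild type and at 37.8, 31.6 and 36.2 in Ms4a6c knockout mice. The groups did not overlap, and the Ms4a cluster knockout values given above lay between them. The means were 23.0 ± 1.35 CPM (SD, n = 3) and 35.2 ± 3.19 (SD, n = 3), a log2 fold change of 0.62 (SE 0.09, edgeR adjusted p = 0.013). Over 666 bases its transcript was identical to H3c14, which was listed at 0 counts in all 9 mice, and to Gm20634, a noncoding transcript at chr3:96245554-96248509 that overlaps H2ac18 and H3c14 on the same strand.

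Summed with its near-identical relatives H3c13 and H3c14, H3c15 stayed higher in the Ms4a6c knockout (log2 fold change 0.61, SE 0.09, edgeR adjusted p = 0.013). H3c14 had 0 counts and H3c13 at most 4.85 in any mouse, so this sum is nearly H3c15 alone and says little about copies. The longest H3c14 transcript is identical to Gm20634 over all its 1825 bases, so its 0 counts do not show that its RNA was absent. Gm20634 was at 82.5, 64.8 and 66.0 CPM in the wild type and 74.5, 65.3 and 72.5 in Ms4a6c knockout mice, which overlapped. With Gm20634 added, the H2ac18 and H3c15 groups join into 1 group of 8 genes, whose log2 fold change was 0.09 (SE 0.08, edgeR adjusted p = 0.752). Without wild-type mouse 2 the adjusted p of H3c15 was 0.0659, without wild-type mouse 3 0.0848 and without Ms4a6c knockout mouse 3 0.0747 (edgeR). The call was also lost with plain library size, at a log2 fold change of 0.81 (SE 0.25, edgeR adjusted p = 0.422).

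H2bc18, an H2B gene of chromosome 3 at chr3:96269752-96270132, had 0 counts in all 6 wild-type and Ms4a cluster knockout mice and 14.4, 13.4 and 7.36 counts in Ms4a6c knockout mice. It was thus at least 3.32-fold higher than in wild type, computed against 3 counts in each wild-type library, and did not pass (edgeR adjusted p = 0.111). The gene reached the filter only through the Ms4a6c knockout mice. The edgeR adjusted p was 0.0481 without a filter on counts and 0.0393 with plain library size.

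Several genes outside the set that lie among the chromosome 3 histone genes also differed; they were chosen after their values were seen. Gm42743, a noncoding gene that overlaps H2bc18 on the same strand, was at 0, 0 and 0.0569 CPM in the wild type and 3.94, 3.97 and 4.33 in Ms4a6c knockout mice, at least 22.2-fold higher (edgeR adjusted p = 0.000636), and reached the filter only through the Ms4a6c knockout mice. Gm20628, on the opposite strand of H2bc18, was at 0.213, 0.111 and 0.114 CPM in wild type and 1.89, 1.99 and 1.47 in the knockout (edgeR adjusted p = 0.0123). Gm20632, on the opposite strand of H2ac19, was at 14.2, 16.4 and 13.5 CPM in wild type and 32.5, 29.2 and 32.4 in the knockout (edgeR adjusted p = 0.000255). In each of the 3 genes the Ms4a6c knockout values lay above all 6 other mice.

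Counted over the stretch of 50.3 kb on chromosome 3 that holds 10 of the histone genes, 2 of the 8 that could be tested were called in Ms4a6c knockout against wild type. Among 80 other tested genes in this stretch and 1 Mb to each side, 5 were called (6.25%), 4 with a higher and 1 with a lower level, and the unadjusted p was under 0.05 for 19 (23.8%), beside 0.435% and 10.5% of all genes. On chromosome 13, 0 of the 39 tested histone genes between 21715763 and 23934851 and 0 of 53 other tested genes there and 1 Mb to each side were called, and 1 of the 53 had an unadjusted p under 0.05. Around Hist1h2al, 0 of 10 other tested genes within 1 Mb were called or had an unadjusted p under 0.05. Between Ms4a cluster knockout and wild type, 0 of the 80 genes around the chromosome 3 histone genes were called, beside 0.0258% of all genes. Of the 80, 5 (6.25%) had an unadjusted p under 0.05, beside 4.93%.

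The 2 knockout lines were also compared directly, and 3 of the 52 tested histone genes passed, beside 0.443% of all genes. Of these 2 were higher in the Ms4a cluster knockout, beside 0.237%, and 1 lower, beside 0.207%. DESeq2 called 4, beside 1.17%, and 9 had an unadjusted p under 0.05, beside 9.38%. These values share the Ms4a6c knockout mice with the comparison above. The lines were made separately, and which line the wild-type littermates came from is not given, so genotype and line background, at the chromosome 3 locus too, cannot be told apart. Hist1h2al was lower in the Ms4a cluster knockout (log2 fold change -5.41, SE 0.27, edgeR adjusted p = 5.62e-06), and summed with its near-identical relatives it was not (log2 fold change 0.11, SE 0.09, edgeR adjusted p = 0.739). H2ac19 was higher in the Ms4a cluster knockout (log2 fold change 0.66, SE 0.10, edgeR adjusted p = 0.0259), as was H2bc21 (log2 fold change 0.59, SE 0.10, edgeR adjusted p = 0.0398). H2ac19 belongs to the same near-identical group as Hist1h2al, so its call was lost in the same sum (log2 fold change 0.11, edgeR adjusted p = 0.739). For each of the 3 genes the values of both lines, given above, did not overlap. H3c15 did not pass in this comparison (log2 fold change -0.36, SE 0.09, edgeR adjusted p = 0.18).

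The H2ac19 call was lost in 5 of the 6 fits that left out 1 mouse, with an adjusted p of 0.106 without Ms4a6c knockout mouse 2, 0.117 without mouse 3, and 0.0703, 0.0741 and 0.086 without Ms4a cluster knockout mice 1, 2 and 3 (edgeR). The H2bc21 call was lost without Ms4a6c knockout mouse 2 (0.211) or 3 (0.221) and without Ms4a cluster knockout mouse 1 (0.142) or 3 (0.121), and in a fit of these 2 genotypes only (edgeR adjusted p = 0.12). Leaving out both gland-rich mice gave an adjusted p of 0.0137 for H2ac19 and 0.00418 for H2bc21 (edgeR). Neither passed with plain library size, at log2 fold changes of 0.48 and 0.44 (edgeR adjusted p = 0.96 for both).

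Among the H2B genes other than H2bc21, H2bc4, an abundant H2B gene of chromosome 13, was at 89.5, 81.5 and 83.5 CPM in wild type, 84.1, 97.98 and 82.6 in the Ms4a cluster knockout and 76.9, 94.5 and 88.3 in the Ms4a6c knockout, which all overlapped. It faces H2ac6, an H2A gene, across a shared interval as H2bc21 faces H2ac20, and H2bc4 and H2ac6 were at 74.9 and 5.82 CPM per kb. H2bc6, whose annotated transcript runs on for 1861 bases past the stem-loop letters, was at 7.49 to 8.32 CPM in wild type and 9.92 to 12.7 in the Ms4a6c knockout. These values did not overlap, and the log2 fold change of 0.53 (SE 0.13) did not pass (edgeR adjusted p = 0.178). H2bc6 and H2bc4 are in a group of 13 genes linked by near-identical matches, which also takes in the linker histone gene H1f4. The summed reads of this group had a log2 fold change of 0.10 (edgeR adjusted p = 0.739).

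Among the H2A genes, H2ac6 overlapped between the genotypes at 13.2 to 15.3 CPM in wild type, 13.2 to 15.5 in the Ms4a cluster knockout and 11.6 to 17.1 in the Ms4a6c knockout. Hist1h2ap overlapped between wild type and Ms4a6c knockout, which was at 18.2 to 23.1 CPM. Hist1h2ao, which has near-identical copies, ranged from 1.99 to 5.40 CPM within the wild type alone. Of the 20 H2A genes 12 could be tested, and of the 17 H2B genes 11.

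All 12 H4 genes could be tested and 0 were called in any of the 3 comparisons, beside 0.0258%, 0.435% and 0.443% of all genes in the order given above. H4c14, the only H4 gene of chromosome 3, was at 3.91 to 5.05 CPM in wild type, 4.19 to 6.67 in the Ms4a cluster knockout and 5.61 to 7.17 in the Ms4a6c knockout. The values of the Ms4a6c knockout lay above those of the wild type without overlap. H4c9 of chromosome 13 was at 2.11 to 2.20 CPM in wild type, and at 2.46 to 3.56 and 2.48 to 3.81 in the Ms4a cluster and Ms4a6c knockouts, both without overlap with wild type. In Ms4a6c knockout against wild type the unadjusted p was under 0.05 for 2 H4 genes, beside 10.5% of all genes. Between Ms4a cluster knockout and wild type it was under 0.05 for 0 of the 12, beside 4.93%.

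Linker histones are told apart by when they are made. H1f0, the linker histone of cells that have stopped dividing, was at 120.1, 116 and 109 CPM in the wild type, 121, 122 and 125 in Ms4a cluster knockout mice and 114, 95.7 and 101 in Ms4a6c knockout mice. The Ms4a cluster knockout lay above wild type without overlap, and wild type and Ms4a6c knockout overlapped (log2 fold change -0.15, SE 0.07, edgeR adjusted p = 0.483, and 0.04 with plain library size). H1f2, a linker histone made with DNA replication, was at 38.3 to 45.6 CPM in wild type and 33.5 to 37.3 in the Ms4a6c knockout, which did not overlap (log2 fold change -0.23, SE 0.10, edgeR adjusted p = 0.459). H1f3, another replication-linked linker histone, was at 1.11 to 1.85 CPM in wild type and 2.23 to 2.83 in the Ms4a6c knockout, also without overlap and not past the test (log2 fold change 0.74, SE 0.28, edgeR adjusted p = 0.375). The Ms4a cluster knockout, at 1.89 to 3.11 CPM of H1f3, lay above wild type without overlap as well.

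The other linker histone genes that could be tested overlapped between wild type and each knockout, except for 2 with few counts. H1f10, a replication-independent linker histone, was at 5.83 to 7.40 CPM in wild type and 5.02 to 6.31 in the Ms4a6c knockout. H1f4 was at 1.997 to 3.20 CPM and 2.04 to 3.20, and the pseudogene H1f11-ps at 0.943 to 1.59 CPM and 0.868 to 1.56. The exceptions were H1f8, the linker histone of oocytes, at 0.0997 to 0.1002 CPM in the Ms4a cluster knockout and 0.142 to 0.333 in wild type, and H1f6, that of spermatocytes, with 2 to 3 counts and 0 to 1. Values that low are at or near the limit of 3 counts. H1f1, H1f5 and H1f7 had too few counts to be tested, and H1f7 had 0 in all 9 mice.

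Replacement variants, histones that can be deposited outside DNA replication and most of whose RNAs are polyadenylated, were read from a list of 9 genes outside the set. Of these 9, 0 passed in any of the 3 comparisons, beside 0.0258%, 0.435% and 0.443% of all genes in the order given above. At such shares a count of 0 among so few genes says little. Their median log2 fold change was 0.03, -0.01 and 0.03 in the same order. H3f3b, which encodes the variant H3.3, was at 789 to 844 CPM in wild type and 848 to 901 in the Ms4a6c knockout. H2az1, which encodes the H2A.Z variant, was at 191 to 199 CPM in wild type and 159 to 174 in the Ms4a6c knockout (edgeR adjusted p = 0.182), without overlap.

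Of 24 genes that process histone RNA, such as Slbp, which binds the stem-loop, 0 passed in any comparison. Slbp was at 23.0 to 25.4 CPM in wild type, 22.6 to 25.5 in the Ms4a cluster knockout and 22.7 to 27.1 in the Ms4a6c knockout. Of 14 histone chaperone genes 0 passed. Both counts stand beside 0.0258%, 0.435% and 0.443% of all genes in the 3 comparisons, so they say little. Of 26 genes of DNA replication and division, 0 passed against wild type, beside 0.0258% and 0.435% of all genes. Between the knockouts 1 passed, beside 0.443%. This was Pcna, the sliding clamp of DNA polymerase, at 69.9 to 76.8 CPM in the Ms4a cluster knockout and 58.3 to 59.9 in the Ms4a6c knockout (edgeR adjusted p = 0.0398), with 69.01 to 72.1 in wild type. Mki67, a marker of dividing cells, overlapped between all 3 genotypes at 27.2 to 37.5 CPM.

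Values of other lists differed between the genotypes without passing the adjusted test, and their part in the histone differences was not tested. An unadjusted p under 0.05 was reached by 10.5% of all genes in Ms4a6c knockout against wild type. The 4 markers of sustentacular cells summed to 10121 to 10771 CPM in the Ms4a6c knockout, above the 8412 to 8884 of wild type. Of these, 3 of 4 had an unadjusted p under 0.05 and 0 of 4 passed the adjusted test, beside 0.435% of all genes. The markers did not agree in direction. Cyp2g1, Sec14l3 and Cyp1a2 were higher in the Ms4a6c knockout, and Ermn was lower, at 108 to 121 CPM against 128 to 164 in wild type. The 4 erythroid markers summed to 493 to 1396 CPM against 406 to 560, with 4 of 4 at an unadjusted p under 0.05, with a median log2 fold change of 1.22. The 7 markers of neutrophil precursors summed to 141 to 278 CPM against 168 to 412, with 5 of 7 at an unadjusted p under 0.05. Their median log2 fold change was 1.25, opposite in sign to their mean sum. The largest part of that sum was Ltf, at a mean of 111 CPM in the Ms4a6c knockout and 254 in wild type. Ngp, S100a8, Camp, Mpo, Elane and Prtn3 all had a higher mean in the Ms4a6c knockout than in wild type. The 5 gland markers summed to 1098 to 31125 CPM against 2450 to 186522, with 2 of 5 at an unadjusted p under 0.05. The 3 bone markers summed to 1104 to 1769 CPM against 1232 to 3326, with 2 of 3 and a median log2 fold change of -0.55. Among these lists no marker was at 0 in any mouse. RNAs that lack a poly-A tail, 12 genes such as Rn7sk, summed to 15.3 to 20.8 CPM in the wild type, 4.26 to 8.07 in Ms4a cluster knockout mice and 4.06 to 18.2 in Ms4a6c knockout mice. The 6 of them that could be tested did not pass in any comparison, and 9 of the 12 were at 0 in at least 1 mouse.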

How the data were processed

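The authors aligned paired-end reads of directional poly-A libraries with STAR 2.6.1, quantified GENCODE M25 genes (mm10) with RSEM 1.3.1 within DolphinNext, and deposited expected counts of 55291 genes without normalization. The submitters' processing notes also name R 4.0.0 and DESeq2 1.30.1.

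Counts were rounded to whole numbers, and the 23225 genes with at least 10 counts over the 9 mice were scaled by TMM and tested in 1 model by genotype by edgeR's quasi-likelihood method (edgeR 4.0.16, R 4.3.3, limma 3.58.1), Benjamini-Hochberg adjusted over all genes, at an adjusted p under 0.05. The SE is the log2 fold change over the square root of F. DESeq2 1.42.0 was an alternative. Counts were simulated for Ms4a6c knockout against wild type over 23225 genes. Of 200 changed genes 171 were called (95 of 100 changed 4-fold, 76 of 100 changed 2-fold), with 15 unchanged genes called. These rates were not split by level, and 48 of the histone genes had a mean under 1 CPM. They are therefore not rates for the histone genes.

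Transcripts, coordinates and overlaps were taken from GENCODE M21, which shares the build and matched 99.6% of deposited genes. Copies were sought with megablast (blast 2.17.0). Promoter windows came from RefSeq. Figures used matplotlib 3.10.9 and Python 3.11.

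The members and lists were chosen with earlier results of these data known. Genes named were Hist1h2al, H3c15, those called in any comparison, the 15 most abundant and H1f0. Also named were H1 genes with at least 10 counts and those with the 3 smallest unadjusted p-values in each comparison. H2bc18, H2bc12, H2ac20, Hist1h2bq and genes named outside the set were chosen after their values were seen. Protein sequences were not used here.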

Additional observations from a re-analysis of the deposited data

Results flagged for a closer look

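Of the 52 tested histone genes, 3 (beside 0.443% of all genes) differed between the 2 knockout lines in the direct comparison of Ms4a cluster knockout with Ms4a6c knockout mice, by edgeR's quasi-likelihood test adjusted over all genes. Hist1h2al, the pseudogene near-identical to H2ac18 and H2ac19, had a log2 fold change of -5.41 and stood at 0.301 to 0.498 CPM in the Ms4a cluster knockout and 16.4 to 16.9 in the Ms4a6c knockout. H2ac19 had a log2 fold change of 0.66, which was 0.11 with near-identical copies summed, and passed in 7 of 16 alternatives. H2bc21 had 0.59 and passed in 9 of 16. Hist1h2al passed in 14 of 16, all but the 2 in which copies were summed. This comparison uses the same Ms4a6c knockout mice as the comparison with wild type. Groups of 3 mice were too small for a search for single outlying mice.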

How the results depend on the processing

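Without replicate pairing in the model, 3 histone genes passed in Ms4a6c knockout against wild type and 3 between the knockouts. With the replicate number as a replicate block, 1 passed in each, Hist1h2al, and 0 in Ms4a cluster knockout against wild type. The deviations of same-numbered mice correlated at -0.58 to -0.17 in Ms4a cluster knockout against wild type, -0.08 to 0.05 in Ms4a6c knockout against wild type and -0.12 to 0.12 between the knockouts, so the numbers were not taken to pair the mice. Leaving out 1 mouse gave 1 to 3 calls in each of these 2 comparisons and 0 in Ms4a cluster knockout against wild type. It was 1 against wild type without wild-type mouse 2 or 3 or Ms4a6c knockout mouse 3, and 1 between the knockouts without Ms4a6c knockout mouse 2 or 3 or Ms4a cluster knockout mouse 1 or 3. An adjusted p under 0.01 left 1 in each. With near-identical histone genes summed, 1 passed between the knockouts, and with copies outside the set added, 1 passed in each of the 2 comparisons. These sums were added after the data were examined. They turned the sign of Hist1h2al to -0.0141 in Ms4a6c knockout against wild type and to 0.109 (or 0.0808 with copies outside the set) between the knockouts, that of H3c15 to 0.0808 between the knockouts, and those of H2ac18 and H2ac19 to 0.0867 against wild type, because each then stands for the same summed reads. With plain library size in the fit, also added after the data were examined, H2bc21, H3c15 and H2ac19 lost their calls, H2bc18 passed in both comparisons with the Ms4a6c knockout, and the sign of H1f0 turned in Ms4a6c knockout against wild type (0.0392), where the median of all genes was 0.18.

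The difference of mean summed histone level was -225 CPM between Ms4a6c knockout and wild type (-249 to -209 with 1 mouse left out), 213 between the knockouts (197 to 238) and -12.6 between Ms4a cluster knockout and wild type (-27.4 to 12.7, above 0 only without Ms4a cluster knockout mouse 2). With plain library size these were -116 and 113 for the first 2, and without H2bc21 they were 8.54, 27.0 and 35.6. The cause was not tested. Summing genes by shared protein was not run, since no reference proteins were used here. Genes at or under 3 counts, 21 of the 72, cannot be compared at this depth.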

Other observations

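Some histone genes with near-identical copies were counted in a few mice only. H2bc12, an H2B gene, had 33.2 counts in Ms4a6c knockout mouse 1, 1.26 in wild-type mouse 2 and 0 in the other 7 mice. Hist1h2br, also an H2B gene, had 6.09 counts in Ms4a cluster knockout mouse 2, 17.6 in mouse 3 of that line, 8.15 in Ms4a6c knockout mouse 1 and 0 in the other 6. Its copy Hist1h2bq, at 99.75% identity, had 0 counts in Ms4a cluster knockout mice 2 and 3. Hist1h2bq had 5.07 to 7.82 in wild-type mice and 6.52 in Ms4a6c knockout mouse 1. H2bc12 and Hist1h2br were chosen after their values were seen, apart from the place of Hist1h2br among the smallest p-values in 1 comparison.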
